A study of Mus musculus with 12 samples.

Results

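The Wnt signalling genes Wnt4, Wnt7b, Sfrp1, Sfrp2, Dkk3, Apcdd1, Axin2, Nkd1 and Nkd2, were followed across 12 RNA-seq libraries of HL-1 cells. These are 9 of the 23184 gene symbols in the deposited table: 2 ligand genes, 3 genes for secreted proteins of antagonist families, 1 membrane antagonist gene and 3 intracellular feedback genes. They were named as a group with results of these data already known, above all the difference between knockdown and control, so their own levels and differences are a description and carry no test. The series compared 3 groups of 4 libraries of this mouse line, which derives from atrial heart muscle cells. Control cells (CON) have the WT genotype and were infected with viruses carrying the pCDH and lentiCRISPRv2 vectors. Knockdown cells (KD, genotype WDR62-) received a CRISPR guide virus against Wdr62, a centrosome and spindle pole protein gene. Re-expression cells (RE, genotype WDR62+) were KD cells given the virus pCDH-WDR62-WT-flag. All groups were grown with fetal bovine serum, and the labels mention pCDH with the CON and RE viruses but not with KD. The treatment labels number the nuclease and the construct upward over the 4 libraries of KD and RE, whereas the protocol names a single guide target and a single construct; the protocol was followed. Whether the KD cells were a clone or a pool, and whether libraries came from separate cultures, has no statement in the labels, so the spread between libraries may be technical. The control columns are named WT1 to WT4 in the table and are called so here.

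Wnt proteins are secreted lipid-modified ligands that bind Frizzled receptors together with LRP5 or LRP6. In the canonical branch this stabilises beta-catenin, which enters the nucleus and acts with TCF/LEF factors on target genes. Among those targets are genes for inhibitors of the pathway itself, such as Axin2, which makes the response self-limiting. In the heart, Wnt signals act in a stage-dependent way during the formation of cardiac muscle, and antagonists are used in culture to favour it.

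The labelled identity was weakly borne out by marker genes. Of 12 atrial cardiomyocyte markers 4 had a mean of at least 1 TPM (transcripts per 1000000 transcripts): Tnnt2, Myl4, Gata4 and Nkx2-5. Myl7, Actc1 and Actn2 were listed at 0 in every library, and Nppa, the atrial natriuretic peptide gene, did not exceed 0.443 TPM. The summed level of the list was 28.5 to 46.4 TPM in CON, 37.2 to 46.5 in KD and 39.8 to 65.5 in RE. Of 8 fibroblast markers 6 reached that mean, led by Col3a1 at 1190 to 3455 TPM. Endothelial markers summed to at most 0.832 TPM. Wdr62 stood at 3.38 to 7.45 TPM in CON, 0.881 to 1.40 in KD and 0.772 to 1.99 in RE. No difference between RE and KD was found (log2 difference 0.05 ± 0.25 SE, 95% interval -0.48 to 0.58, limma adjusted p = 0.895). Whether these levels include transcripts of the introduced construct was not tested. Exons of Wdr62 also overlap those of Thap8, a protein-coding gene on the opposite strand. Libraries WT4, RE1 and RE3 stood apart in long transcripts. In the 2338 tested genes with the longest transcripts, the median log2 deviation from the gene mean was -0.82 in WT4, where WT1 to WT3 had 0.46 to 0.70. It was -0.72 and -0.99 in RE1 and RE3 against -0.12 and -0.13 in RE2 and RE4.

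Of the 9 genes, 6 had a mean of at least 1 TPM over the 12 libraries and entered the fit across all 11774 such genes. Axin2, Dkk3 and Nkd1 were below that mean and are given by level only. A gene that is high in only 1 group can pass this filter through that group, as Wnt4 and Wnt7b did. In the sentences below a level is in TPM, as mean ± SD with n = 4 libraries, and a difference is in log2(TPM + 1) with its standard error (SE), a scale that understates changes of low genes. The median difference over all tested genes was -0.01 for KD against CON, and for RE it was -0.29 relative to KD and -0.27 relative to CON, and within 0.01 of 0 for both RE comparisons with median-of-ratios scaling, so values for RE are to be read against those medians. Bulk RNA cannot tell fewer cells with a transcript from less transcript per cell.

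Upstream sequences are shown so that the base composition at the start of genes that were low and genes that were high in KD can be seen side by side. RefSeq windows on GRCm38.p6 were found for 5 of the 9 genes, and 4 that hold bases upstream of the annotated gene are printed 5′ to 3′ on the gene's strand, ending at the base before the annotated start of the gene, with every CG dinucleotide in capitals. Wnt4 covers chr4:137277385-137277488 (plus strand), Sfrp2 chr3:83766071-83766320 (plus), Nkd2 chr13:73847632-73847881 (minus) and Axin2 chr11:108920099-108920348 (plus).
Wnt4: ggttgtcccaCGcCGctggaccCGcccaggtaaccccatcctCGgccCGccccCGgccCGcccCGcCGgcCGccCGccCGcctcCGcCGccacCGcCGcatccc
Sfrp2: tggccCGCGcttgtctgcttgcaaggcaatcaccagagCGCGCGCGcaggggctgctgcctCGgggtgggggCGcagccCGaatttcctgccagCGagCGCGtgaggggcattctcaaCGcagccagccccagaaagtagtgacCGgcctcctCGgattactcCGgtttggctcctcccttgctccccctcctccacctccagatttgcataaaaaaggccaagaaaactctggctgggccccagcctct
Nkd2: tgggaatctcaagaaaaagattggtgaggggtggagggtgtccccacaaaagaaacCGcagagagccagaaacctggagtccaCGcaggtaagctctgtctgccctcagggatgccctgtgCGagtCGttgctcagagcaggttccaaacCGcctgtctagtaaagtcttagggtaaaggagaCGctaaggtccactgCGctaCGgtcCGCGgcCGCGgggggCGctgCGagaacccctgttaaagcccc
Axin2: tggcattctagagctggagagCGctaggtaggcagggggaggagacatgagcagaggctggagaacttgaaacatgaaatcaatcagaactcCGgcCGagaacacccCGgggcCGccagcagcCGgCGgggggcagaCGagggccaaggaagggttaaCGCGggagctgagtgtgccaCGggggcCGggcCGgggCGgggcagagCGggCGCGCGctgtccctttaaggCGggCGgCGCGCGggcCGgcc

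All 4 stretches were rich in G and C. The Wnt4 stretch of 104 bases had 83.7% G and C and 16 CG dinucleotides. The windows of 250 bases had 63.6% and 16 for Sfrp2, 58.4% and 14 for Nkd2, and 69.2% and 24 for Axin2, against medians of 52.4% and 6 over 32851 such windows in the genome. The Wnt4 stretch is shorter than those windows and is not set against their medians. High G and C content was thus present both for a gene low outside CON (Wnt4) and for genes high in KD (Sfrp2, Nkd2). Letters bound by TCF/LEF factors were sought on both strands. The motif CTTTGAA occurs in 4.46% of all 250-base windows. The motif CTTTGAT occurs in 3.21% of them. The motif CTTTGTT occurs in 5.03% of them, and at least 1 of the 3 in 12%. None occurs in the 4 printed stretches, which says only that the letters are not in these bases.

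The ligand genes Wnt4 and Wnt7b were expressed in CON and nearly absent in the other groups. Wnt4 encodes a ligand known for its part in kidney and female reproductive tract development and for signalling through both canonical and non-canonical routes. It lies on chr4:137277489-137299726 (plus strand, GENCODE M21, mm10). Its level was 7.74, 9.40, 7.14 and 16.0 TPM in WT1 to WT4, 0.271, 0.303, 0.0333 and 0.194 in KD1 to KD4, and 0.514, 0.129, 0.446 and 0.513 in RE1 to RE4. Every CON library lay above every KD and RE library, and the KD and RE ranges overlapped. The group levels were 10.1 ± 4.06, 0.20 ± 0.12 and 0.401 ± 0.184 TPM, and the log2 difference was -3.15 ± 0.23 for KD against CON and -2.93 ± 0.23 for RE against CON. Between RE and KD it was 0.22 with a 95% interval of -0.28 to 0.72. WT4, the control library with low long transcripts, held the most Wnt4, whose longest annotated transcript has 4194 bases.

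Wnt7b encodes a ligand known from lung, kidney and bone development and lies on chr15:85535437-85582473 (minus strand). It stood at 6.03, 6.85, 7.24 and 3.88 TPM in WT1 to WT4, at 0.117, 0.124, 0.0762 and 0.127 in KD1 to KD4, and at 0.131, 0.288, 0.170 and 0.0344 in RE1 to RE4. CON was again separate from both other groups, and the RE libraries spread on both sides of the KD libraries. The difference was -2.63 ± 0.18 for KD against CON and -2.57 ± 0.18 for RE against CON, with 0.05 (95% interval -0.34 to 0.44) between RE and KD. For Wnt7b the sign of that last value flipped without RE2.

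**Figure D1:**
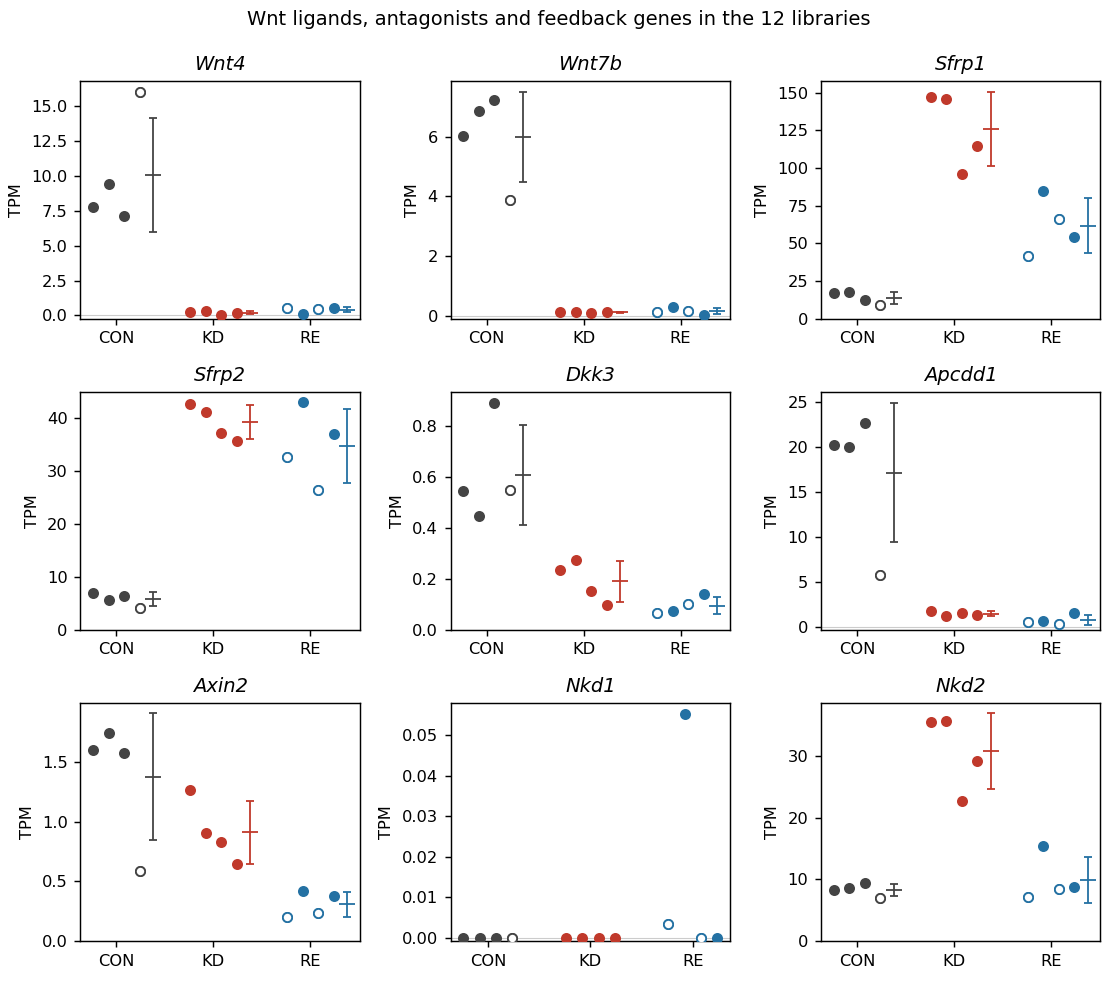
Level of each of the 9 genes in TPM (vertical axis, linear) by group (horizontal axis); each point is 1 library in column order, open points are WT4, RE1 and RE3, and the horizontal tick with bars is the mean ± SD of 4 libraries, left out for Nkd1, which is listed at 0 in 10 libraries. Wnt4, Wnt7b and Apcdd1 are high in CON alone, Sfrp1 is highest in KD with RE between, Sfrp2 is high in KD and RE, and Nkd2 is high in KD alone.

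Sfrp1 and Sfrp2 encode secreted frizzled-related proteins, which carry a cysteine-rich domain like that of Frizzled receptors and can bind Wnt ligands outside the cell. Both were higher in KD than in CON. Sfrp1 (chr8:23411502-23449632, plus strand) stood at 16.7, 17.5, 12.7 and 8.99 TPM in WT1 to WT4, at 147, 146, 96.1 and 115 in KD1 to KD4, and at 41.7, 85.0, 66.0 and 54.3 in RE1 to RE4. No pair of groups overlapped: KD lay highest, RE between and CON lowest. The means were 14.0 ± 3.93, 126 ± 24.8 and 61.8 ± 18.4 TPM, so that KD was 9.01 times CON and RE was 4.42 times CON. The log2 difference was 3.10 ± 0.25 for KD against CON, 2.06 ± 0.25 for RE against CON and -1.04 ± 0.25 for RE against KD. The RE to KD difference of Sfrp1 is to be read against a median of -0.29 over all tested genes in that comparison, and relative to that median it was -0.75.

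Sfrp2 (chr3:83766321-83774316, plus strand) stood at 7.02, 5.67, 6.38 and 4.07 TPM in WT1 to WT4, at 42.7, 41.2, 37.2 and 35.7 in KD1 to KD4, and at 32.6, 42.9, 26.5 and 36.9 in RE1 to RE4. CON lay below all other libraries, and the KD and RE ranges overlapped. Its mean was 5.79 ± 1.27 TPM in CON, 39.2 ± 3.26 in KD, 6.78 times as high, and 34.7 ± 6.95 in RE. The difference was 2.58 ± 0.19 for KD against CON, 2.40 ± 0.19 for RE against CON and -0.19 (95% interval -0.61 to 0.24) for RE against KD. That small RE to KD value took the opposite sign with median-of-ratios scaling (0.13), and the RE to KD value of Sfrp1 remained negative (-0.71). Summed over the 5 frizzled-related protein genes, the level was 56.2 to 98.5 TPM in CON, 199 to 238 in KD and 108 to 171 in RE. In CON most of this was Sfrp4, a further family member, with 58.8% to 86.7% of the sum, and in KD Sfrp1 was the largest part, with 43.7% to 62.1%. Exons of Sfrp2 overlap those of an antisense gene, and without stated strand their reads cannot be told apart; the same holds for Axin2, and for Wnt7b with AU022754, which had a mean of 0.0178 TPM. Exons of Ccnd1, Fosl1, Ctnnb1, Notum, Fzd6 and Dact2, described further on, likewise overlap a gene on the opposite strand.

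Dkk3 encodes a secreted glycoprotein of the Dickkopf family, a divergent member whose action on Wnt signalling varies with the cell type (chr7:112116017-112159057, minus strand). It was low throughout, at 0.444 to 0.889 TPM in CON, 0.0959 to 0.274 in KD and 0.0658 to 0.138 in RE. CON lay above both other groups, whose ranges overlapped. Apcdd1 (chr18:62922231-62961179, plus strand) encodes a membrane glycoprotein that inhibits Wnt signalling at the cell surface and is itself a beta-catenin target. It stood at 20.3, 19.99, 22.7 and 5.76 TPM in WT1 to WT4, at 1.81, 1.19, 1.59 and 1.37 in KD1 to KD4, and at 0.522, 0.707, 0.376 and 1.56 in RE1 to RE4. CON was above every other library even with WT4, the low one, and RE4 alone of the RE libraries lay within the KD range. The difference was -2.72 ± 0.36 for KD against CON and -3.23 ± 0.36 for RE against CON.

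Apcdd1 has the longest transcript of the 9 genes, 10879 bases, and its low CON and RE values fell in WT4, RE1 and RE3, the libraries with low long transcripts. Without those 3 libraries the KD to CON difference was -3.14. With a trend on transcript length subtracted from each library it was -2.66, and the RE to KD difference turned from -0.51 (95% interval -1.30 to 0.27) to 0.41. A direction between RE and KD is therefore not given for Apcdd1.

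The feedback genes did not move together. Axin2 encodes a scaffold of the beta-catenin destruction complex and is widely used as a readout of canonical signalling (chr11:108920349-108950783, plus strand). It stood at 1.60, 1.75, 1.58 and 0.589 TPM in WT1 to WT4, at 1.27, 0.905, 0.830 and 0.643 in KD1 to KD4, and at 0.204, 0.419, 0.238 and 0.374 in RE1 to RE4. The CON and KD ranges overlapped through WT4 alone, and RE lay below every other library. Nkd1 and Nkd2 encode naked cuticle homologues, which bind Dishevelled and dampen Wnt signals. Nkd1 (chr8:88521354-88594884, plus strand), a common beta-catenin target, was listed at 0 in 10 of 12 libraries and at 0.0033 and 0.0551 TPM in RE1 and RE2. Nkd2 (chr13:73818534-73847631, minus strand) stood at 8.35, 8.62, 9.36 and 6.98 TPM in WT1 to WT4, at 35.7, 35.8, 22.7 and 29.3 in KD1 to KD4, and at 7.17, 15.4, 8.41 and 8.79 in RE1 to RE4. Every KD library lay above every other library, and 3 of the 4 RE libraries lay within the CON range.

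Nkd2 had a mean of 8.32 ± 0.997 TPM in CON, 30.9 ± 6.23 in KD, 3.71 times as high, and 9.94 ± 3.70 in RE. The difference was 1.76 ± 0.24 for KD against CON and -1.57 ± 0.24 for RE against KD, or -1.28 relative to the median of all tested genes. Between RE and CON it was 0.18 with a 95% interval of -0.33 to 0.70, a value whose sign flipped without RE2 (-0.03). Among the 6 tested genes, the RE range overlapped that of CON for Nkd2 alone, lay between CON and KD for Sfrp1, and overlapped that of KD for the other 4. These comparisons share libraries, so they are given side by side and not as independent results.

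**Figure D2:**
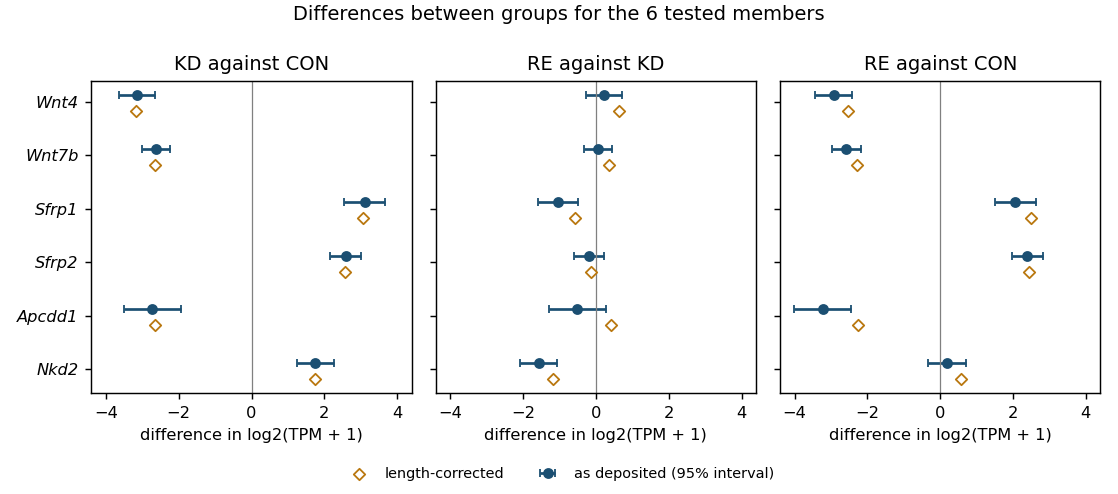
Difference in log2(TPM + 1) (horizontal axis) for the 6 tested genes (rows) in each comparison (panels); filled circles with bars are the fitted difference with its 95% interval, and open diamonds are the value after subtraction of a length trend. In RE against KD, Nkd2 lies at -1.57 and Sfrp1 at -1.04, and Apcdd1 moves from -0.51 to 0.41 with the length correction.

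Counts of passed genes are given against their background and nothing is read from them, since the 9 genes were chosen on such values. In KD against CON all 6 tested genes had an adjusted p below 0.05 in limma, 3 higher (6.6% of the 11774 tested genes) and 3 lower (3.61%), where 10.2% of tested genes passed. In RE against KD 1 of 6 did, Nkd2, which was lower (0.858% of tested genes; 1.04% in either direction). In RE against CON 5 of 6 did, all but Nkd2, with 2 higher (2.7%) and 3 lower (3.63%; 6.33% in either direction). The Nkd2 count for RE against KD became 0 without KD1, KD2, KD4, RE1 or RE4 and without WT4, RE1 and RE3 together. It became 2, with Sfrp1 added, without WT4, KD3 or RE2. Ranges did not overlap for 7 of 9 genes between KD and CON (18.9% of tested genes), for 3 of 9 between RE and KD (14.3%) and for 7 of 9 between RE and CON (9.22%). The 9 include Axin2, Dkk3 and Nkd1, which were not tested, so the sets are unlike. Dkk3 is in the counts against CON, and Axin2 is in both counts for RE.

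The other ligand genes make up the rest of the ligand transcripts. Summed over the 19 ligand genes, the level was 37.8 to 48.7 TPM in CON, 21.8 to 24.95 in KD and 14.8 to 16.6 in RE, with no overlap between groups. Wnt4 and Wnt7b together made up 37.1% of it on average in CON, 1.34% in KD and 3.57% in RE. Of the 17 ligand genes beside these, 4 were tested. Wnt5b, a mainly non-canonical ligand gene, stood at 0.934 to 1.81 TPM in CON, 4.61 to 7.18 in KD and 3.25 to 4.96 in RE. It rose by 1.48 ± 0.19 in KD (adjusted p = 0.000373) and stayed higher in RE than in CON (1.03 ± 0.19, adjusted p = 0.00609). Wnt10b, a canonical ligand gene, fell from 6.63 ± 2.84 TPM in CON to 1.28 ± 0.18 in KD (-1.64 ± 0.32, adjusted p = 0.00625) and was 1.43 ± 0.835 in RE (-1.61 ± 0.32 against CON, adjusted p = 0.0102; 0.0572 in a fit of these 2 groups alone). Wnt10a was the most abundant ligand gene in every library. Its mean was 14.7 ± 4.91 TPM in CON and 12.1 ± 1.45 in KD (-0.21 ± 0.25, adjusted p = 0.714), and it fell to 6.37 ± 1.91 in RE against CON (-1.07 ± 0.25, adjusted p = 0.023). That last call was lost without WT3, RE1 or RE4 (adjusted p of up to 0.0882), with median-of-ratios scaling and with the length correction. Wnt9a did not pass in any comparison.

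**Figure D3:**
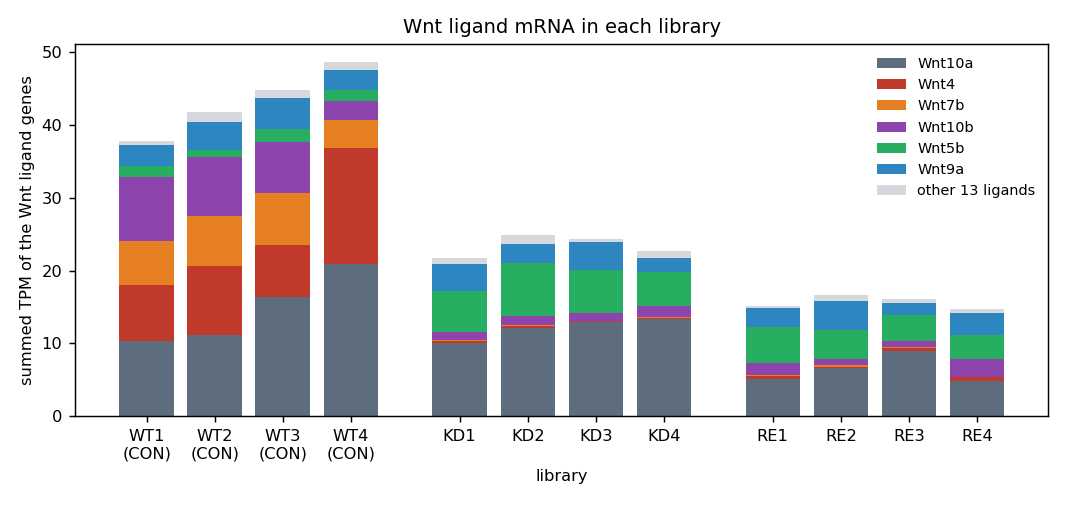
Summed TPM of the 19 Wnt ligand genes (vertical axis) in each library (horizontal axis), split by gene. CON libraries reach 37.8 to 48.7 TPM with large Wnt4 and Wnt7b segments, which are nearly missing in KD and RE, where Wnt5b takes more of the bar.

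Ligand processing genes did not pass. Wls, which carries Wnt proteins to the cell surface, had 293 ± 97.0 TPM in CON and 280 ± 53.4 in KD, and Porcn, the acyltransferase that adds their lipid, 9.01 ± 5.55 and 7.91 ± 1.79. For both the limma adjusted p was at least 0.139 in each comparison, and at an unadjusted p under 0.05 there were 0 of 2 in KD against CON and 1 of 2 in each of the others.

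Among antagonist genes beside the 9, 5 of 14 were tested, and 1 rose and 1 fell in KD. Dkk2, a Dickkopf gene whose product binds LRP5 and LRP6, fell from 2.88, 2.91, 3.53 and 5.12 TPM in WT1 to WT4 to 0.0702, 0, 0.0689 and 0.0287 in the KD libraries (-2.12 ± 0.16, adjusted p = 5.31e-06). It remained low in RE at 0 to 0.0649 TPM (-2.15 ± 0.16 against CON, adjusted p = 5.4e-06), and it passed the filter through CON alone. Notum, an extracellular enzyme that removes the lipid from Wnt proteins and a known target of the pathway, rose from 14.9 ± 5.39 to 29.9 ± 2.31 TPM in KD (1.02 ± 0.22, adjusted p = 0.0105), a call lost with median-of-ratios scaling (adjusted p = 0.0623). In RE it was 23.5 ± 3.32 TPM. As a description, Sfrp1, Sfrp2 and Notum were higher in KD, and Apcdd1, Dkk2 and Dkk3 were lower. Sfrp1, Sfrp2, Apcdd1 and Dkk3 were chosen with these differences known, and Dkk2 passed the filter through CON. Nothing about antagonists as a class is read from these directions. Sfrp4 (51.5 ± 23.3 TPM in CON, 58.3 ± 18.9 in KD) and Kremen1 (53.9 ± 15.3 and 60.2 ± 14.6), the most abundant of this list, did not pass.

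Of 16 receptor genes 10 were tested, and 0 rose and 1 fell in KD, 10% where 10.2% of all tested genes passed. Fzd6, a Frizzled gene linked to planar polarity, fell from 29.0, 30.8, 24.1 and 8.71 TPM in WT1 to WT4 to 5.46 to 8.79 TPM in KD (-1.40 ± 0.39, adjusted p = 0.039) and 2.24 to 6.85 in RE (-2.05 ± 0.39 against CON, adjusted p = 0.0073). The KD call was lost without any 1 of WT1, WT2, WT3, KD1 to KD4 and RE1 (adjusted p of up to 0.121 without WT2). Fzd4 fell in RE against CON (-1.70 ± 0.43, adjusted p = 0.0355; up to 0.124 without WT2, and lost without any 1 of 8 libraries). The most abundant receptor genes were Ryk at 113 ± 21.8 TPM and Fzd1 at 69.0 ± 17.8 TPM in CON, and neither passed. In the R-spondin module, whose ligands sustain Frizzled receptors at the membrane, 4 of 9 genes were tested and 0 passed in KD against CON (2 at an unadjusted p under 0.05). Rspo2, an R-spondin ligand gene, was at 0.276 to 0.596 TPM in CON, 0.786 to 1.68 in KD and 2.05 to 3.82 in RE, 3 ranges that do not overlap. It rose in RE against CON by 1.37 ± 0.20 (adjusted p = 0.00102), and the value for KD against CON was 0.59 ± 0.20 (adjusted p = 0.0844). With a mean of 1.51 TPM over the 12 libraries, Rspo2 passed the filter through its level in RE. Its p and its place in the counts therefore support nothing.

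Inside the cell, 19 of 21 transducer and inhibitor genes beside the 9 were tested, and 1 rose and 0 fell in KD (5.26%, against 10.2% of all tested genes). Dact2, a Dapper gene whose product binds Dishevelled as Nkd2 does, rose from 3.86 ± 0.56 to 9.89 ± 1.10 TPM in KD (1.17 ± 0.18, adjusted p = 0.00128) and stood at 8.49 ± 1.44 in RE (0.96 ± 0.18 against CON, adjusted p = 0.00651). Ctnnb1 for beta-catenin had 320 ± 136 TPM in CON, 239 ± 47.7 in KD and 153 ± 69.9 in RE and did not pass (-0.29 ± 0.42 in KD against CON, adjusted p = 0.782), where WT4 had 117 TPM and WT1 to WT3 had 364 to 404. Of 11 tested nuclear factors 1 rose and 0 fell in KD (9.09%, also against 10.2%): Tle4, a Groucho-type co-repressor gene that binds TCF/LEF factors, from 0.609 ± 0.216 to 2.06 ± 0.30 TPM (0.93 ± 0.18, adjusted p = 0.00583). With a mean of 1.23 TPM over the 12 libraries, Tle4 passed the filter through its level in KD. Its p and its place in the counts therefore support nothing.

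Known beta-catenin target genes beside Axin2, Nkd1 and Apcdd1 passed in both directions. Of 21, 14 were tested, and 1 rose and 2 fell in KD (21.4%, against 10.2% of all tested genes), with a median of -0.34 where all tested genes had -0.01. Notum rose, as given above, and Ephb2, an Eph receptor gene, fell from 1.33 to 3.54 TPM in CON to at most 0.552 in KD (-1.53 ± 0.22, adjusted p = 0.000769). Ephb2, with a mean of 1.01 TPM over the 12 libraries, passed the filter through CON alone, as Dkk2 did, so a difference was built into its entry and its p and its place in the counts support nothing. Ccnd1 for cyclin D1 fell from 194 ± 65.6 to 84.9 ± 7.36 TPM (-1.11 ± 0.29, adjusted p = 0.0309), a call lost without any 1 of WT1, WT2, WT3, KD1, KD2 and KD4 (up to 0.0985). In RE against CON 1 rose and 2 fell (21.4%, against 6.33% of all tested genes), with a median of -0.75 where all tested genes had -0.27. An unadjusted p under 0.05 was found for 12 of 14, and for 41 of all 73 tested pathway genes beside the 9. The share over all tested genes is not given, so nothing is read from these 2 counts. Fosl1, an AP-1 subunit gene, rose from 104 ± 19.9 to 192 ± 13.9 TPM (0.90 ± 0.16, adjusted p = 0.00482), and Ephb2 (-1.79 ± 0.22, adjusted p = 0.000293; 0.105 with the length correction) and Wisp1 (-1.79 ± 0.47, adjusted p = 0.0428) fell. The call of Wisp1, a matricellular protein gene, was lost without any 1 of 10 libraries (up to 0.147 without WT2).

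Of 8 tested planar polarity genes 1 rose and 0 fell in KD (12.5%, against 10.2%). Prickle2, a cytoplasmic polarity gene, rose from 1.44 ± 0.81 to 6.33 ± 2.62 TPM (1.57 ± 0.33, adjusted p = 0.00854). Its relative Prickle1 stood at 1.94 ± 0.31 TPM in CON and 1.89 ± 0.15 in KD, and at 0.753 ± 0.246 in RE. Prickle1 was the single pathway gene beside the 9 that passed in RE against KD (-0.73 ± 0.16, adjusted p = 0.0494), and that call was lost without any 1 of 9 libraries (up to 0.199 without KD2). The same call was lost in 8 of 10 other settings, among them median-of-ratios scaling, quantile normalization and the length correction (adjusted p of up to 0.438). Prickle1 also fell in RE against CON (-0.75 ± 0.16, adjusted p = 0.0122), as did Rhou, a small GTPase gene induced by Wnt signals (-1.20 ± 0.27, adjusted p = 0.0186). Both of these calls were lost with median-of-ratios scaling, that of Prickle1 also without WT1 (adjusted p = 0.0528) and that of Rhou also without WT1, WT2 or WT3 (up to 0.0652).

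**Figure D4:**
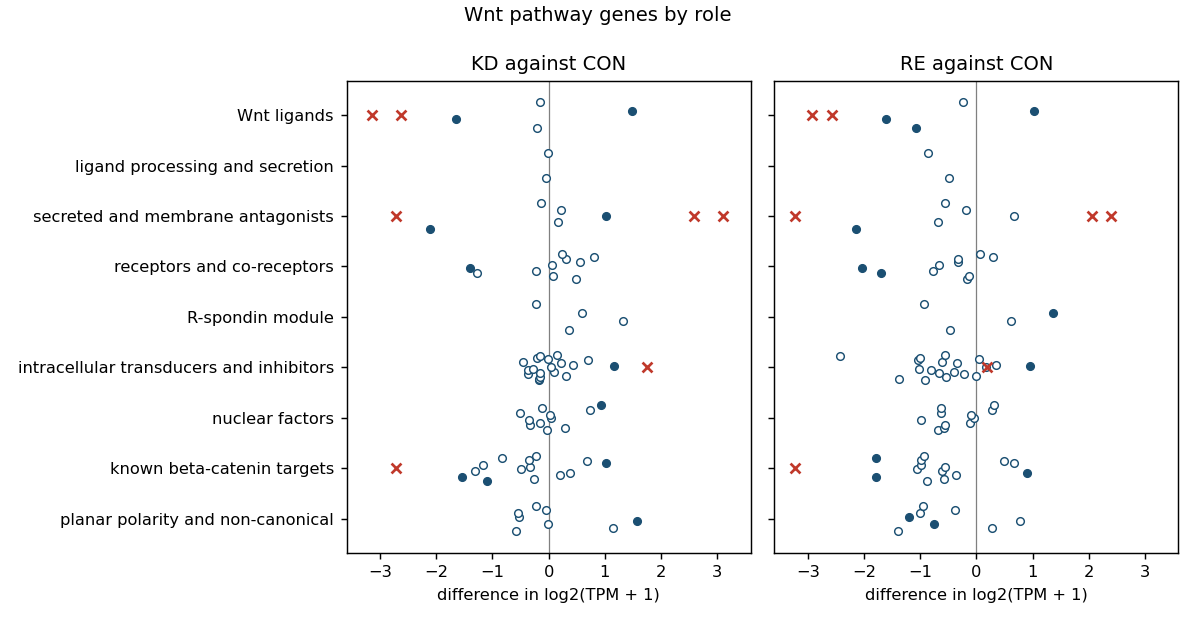
Difference in log2(TPM + 1) (horizontal axis) for tested Wnt pathway genes by role (rows) in KD against CON and RE against CON (panels); filled circles have an adjusted p below 0.05, open circles do not, and crosses mark tested genes among the 9, shown without a test. The crosses of Wnt4, Wnt7b and Apcdd1 lie left of the filled circles of their rows and those of Sfrp1 and Sfrp2 right of them; Axin2, Dkk3 and Nkd1 were not tested and are not drawn.

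Over all 73 tested pathway genes beside the 9, 10 passed in KD against CON, 5 higher and 5 lower, which is 13.7% against 10.2% of all tested genes. Their median difference was -0.05 where that of all tested genes was -0.01. In RE against KD 1 passed (1.37% against 1.04%; 25 at an unadjusted p under 0.05), and in RE against CON 13 did, 4 higher and 9 lower (17.8% against 6.33%), with a median of -0.57 where all tested genes had -0.27. Without WT4 these counts were 19, 23 and 47, while the counts over all tested genes rose from 1202, 123 and 745 to 2412, 2791 and 6219. The main counts against CON include Dkk2 and Ephb2, with Tle4 in KD and Rspo2 in RE. These genes passed the filter through the group where they were high, so the shares are not read as a result. Counts at an unadjusted p under 0.05, here and above, have no share over all tested genes beside them, and nothing is read from them.

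Of the marker lists of other cell types, the epithelial and macrophage sums separated KD from CON. The skeletal muscle, smooth muscle, fibroblast and endothelial sums overlapped between KD and CON. The smooth muscle list summed to 566 to 1151 TPM in CON, 757 to 1192 in KD and 337 to 1550 in RE. The epithelial list of 5 genes summed to 19.5 to 37.9 TPM in CON, 0.648 to 2.17 in KD and 0.293 to 1.60 in RE; 1 of 5 (Krt19) had a mean of at least 1 TPM, Epcam was listed at 0 and Cdh1, Krt8 and Krt18 did not exceed 0.101 TPM. Among 7 skeletal muscle markers that were listed, 5 had a mean of at least 1 TPM. Their list summed to 362 to 653 TPM in CON, 292 to 389 in KD and 330 to 549 in RE. Most of that sum was Des (420 ± 144 TPM in CON, 325 ± 42.9 in KD). Myod1 went from 4.27 to 8.18 TPM in CON to at most 0.125 in KD and 0.133 in RE. Every KD library also lay below every CON library for Myf5, Acta1 and Chrna1. Their means were 12.5 ± 4.76, 3.33 ± 1.10 and 12.3 ± 2.74 TPM in CON. In KD they were 4.69 ± 0.971, 0.340 ± 0.114 and 3.77 ± 0.266 TPM. The KD and CON ranges of Des, Myog and Ckm overlapped. The macrophage list, 3 of 6 with a mean of at least 1 TPM, summed to 134 to 182 TPM in CON, 221 to 253 in KD and 176 to 270 in RE, so that KD lay above CON as Sfrp1, Sfrp2 and Nkd2 did. Most of that sum was Cd14 (144 ± 21.0 TPM in CON, 220 ± 13.2 in KD), Lyz2 went from 0.924 ± 0.901 to 7.15 ± 1.59 TPM, and the defining markers Ptprc, Adgre1 and Csf1r had means below 1 TPM, with Adgre1 listed at 0. The fibroblast list, with Lum listed at 0, summed to 2752 to 4265 TPM in CON, 2953 to 4252 in KD and 1560 to 2525 in RE, which lay below both other groups. Within it Dcn was lower in KD, at 5.05 ± 0.866 TPM against 41.8 ± 27.1 in CON, where WT4 alone had 81.4. Col1a1 was lower in KD too, at 57.9 ± 10.8 TPM against 97.1 ± 12.9. The KD and CON ranges of Col1a2, Col3a1, Pdgfra and Postn overlapped, and the means of Col1a2, Pdgfra and Postn were higher in KD. The part of these lists in the levels of the 9 genes was not tested.

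Genes with the closest pattern were sought among 9621 genes of at least 5 TPM by Pearson's r of log2(TPM + 1) over the 12 libraries, given as a description; the libraries fall in 3 groups, so r includes the group levels. For Wnt4 they were Scara5 (r = 0.982), Tspan8 and Gsta3, and for Wnt7b Cyp4f40 (0.996) and Sulf1. Cyp4f40 had 26.7 ± 5.52 TPM in CON and 0.0339 ± 0.0397 in KD, and was listed at 0 in RE. Sulf1, whose product edits heparan sulphate, the matrix sugar that holds Wnt ligands, had 21.0 ± 9.47 TPM in CON and 0.0495 ± 0.0449 in KD. For Sfrp1 they were Sema3f (0.991), Il1rn and Lmod1, and for Sfrp2 Ms4a4d (0.982), Galnt18 and Lfng. Sema3f, a secreted guidance gene, had 10.5 ± 1.57 TPM in KD and 7.21 ± 1.25 in RE and was lowest in CON, the order seen for Sfrp1. Apcdd1 was closest to Ltbp4 (0.991), Taf15 and Slc7a11, and Dkk3 to Scamp5 (0.923), Adm2 and P2rx3. Nkd2 was closest to Pofut2 (0.977), Rnd2 and Trib2; Rnd2 had 56.4 ± 4.97, 133 ± 15.0 and 72.4 ± 18.5 TPM in CON, KD and RE. Axin2 was closest to Bcl2l11 (0.976), Ppp1r15a and Eif4g3, a set lowest in RE as Axin2 was.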

How the data were processed

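RNA of 12 HL-1 libraries (4 CON, 4 KD, 4 RE) was measured by RNA-seq. The authors deposited 1 table of TPM for 23184 symbols. Each column sums to 1000000, so depth is unknown and no counting interval is given. Trim Galore 0.6.6, TopHat2 2.1.1, Cufflinks 2.2.1 and the mm10 build are named in the submitters' processing notes; how they led to TPM, and any use of strand, has no statement in the labels. The WT columns were taken as CON by the WT genotype label and carry no pairing number.

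Genes whose mean reached 1 TPM entered the analysis on log2(TPM + 1) and fitted in 1 limma 3.58.1 model (R 4.3.3; mean per group, trended moderated test, two-sided), with Benjamini-Hochberg adjustment over the 11774 tested genes and a threshold of 0.05. The groups share 1 estimate of the spread. The script was tested on simulated data. The 9 genes, the Wnt lists, the markers and the tests were chosen with earlier results of these data known. Named pathway genes are, per list and comparison, up to 4 that passed with the largest difference, plus the 2 most abundant per list and the 3 closest patterns per gene, of which 1 is not reported here. Transcript lengths, the longest per gene, and positions come from GENCODE M21 (GRCm38, the assembly of mm10) and promoters from RefSeq; 11690 tested genes had a length. Alternatives were another pseudocount, other filters, scalings, a replicate block, the compared groups alone, robust moderation, a length correction (loess, span 0.5) and leaving out libraries.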

Additional observations from a re-analysis of the deposited data

Results flagged for a closer look

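In 76 groups of 4 libraries examined (the 9 genes and the pathway genes that passed), 4 had 1 library far from the other 3 by Dixon's ratio, where chance gives about 3.8. Apcdd1 was at 5.76 TPM in WT4, with WT1 to WT3 at 19.99 to 22.7. Axin2 was at 0.589 TPM in WT4, with WT1 to WT3 at 1.58 to 1.75. Nkd1 was at 0.0551 TPM in RE2 against 0 to 0.0033 in the other RE libraries. Fosl1 was at 104 TPM in KD2 against 143 to 148 in the other KD libraries.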

How the results depend on the processing

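The differences of the 6 tested genes among the 9 kept their sign in KD against CON under every alternative and every left-out library, and all 6 passed there wherever they were tested. These genes were chosen with such differences known, and Wnt4 and Wnt7b passed the filter through CON. Their calls, here and in the next sentences, are a description and support nothing. Of all tested genes, the main fit passed 10.2% in KD against CON, 1.04% in RE against KD and 6.33% in RE against CON. In RE against CON the 5 that passed did so in every fit that left out 1 library; with a mean of at least 5 TPM 3 remained tested and passed. In RE against KD the count among them was 2 with the replicate block, 0 with the block and length correction together and 0 without WT4, RE1 and RE3; leaving out 1 library gave 0 to 2.

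Counts over all genes depended on long transcripts and WT4. For KD against CON (1202) they were 1904 with quantile normalization, 2505 with the length correction, 4636 without WT4, RE1 and RE3, and 744 to 2412 leaving out 1 library. For RE against KD (123) they were 81 with median-of-ratios scaling, 49 in the 2 groups alone, 50 without those 3 libraries, 242 with the length correction, and 13 to 2791 leaving out 1. For RE against CON (745) they were 452 at 5 TPM, 1178 with quantile normalization, 409 in the 2 groups alone, 3781 without the 3 libraries, 1494 with the length correction, and 417 to 6219 leaving out 1. The highest of each range was without WT4, and the lowest without KD2, KD2 and WT3 in turn. Of the genes that passed, 64.6%, 17.9% and 42.7% were higher in the 3 comparisons, against 56.3%, 43.2% and 54.4% with median-of-ratios scaling, 56.0%, 40.9% and 57.0% with quantile normalization and 54.1%, 48.3% and 58.0% with the length correction. The split for KD against CON turned to a minority higher without WT4 (46.3%) and without WT4, RE1 and RE3 (36.2%); for the RE comparisons these gave 16.2% and 32.0% against KD, and 20.5% and 25.3% against CON.

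For pathway genes beside the 9, KD against CON (10) gave 4 at 5 TPM, 17 with median-of-ratios scaling, 20 with quantile normalization, 22 with the length correction, 32 without the 3 libraries and 8 to 19 leaving out 1. RE against KD (1) gave 0 with a pseudocount of 0.1, at 5 TPM, in the 2 groups alone, with robust moderation and without the 3 libraries, and 0 to 23 leaving out 1. RE against CON (13) gave 5 at 5 TPM, 8 in the 2 groups alone, 23 with the length correction, 34 without the 3 libraries and 9 to 47 leaving out 1, the highest of each range again without WT4. Fewer genes are tested at 5 TPM; other causes were not tested.

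KD and RE share replicate numbers. For same-numbered libraries the correlations of the deviations from the group means had both signs, at -0.554, 0.652, 0.239 and -0.252. Differently numbered libraries had values as high, such as 0.642 for KD3 with RE1. These correlations therefore cannot decide whether the numbers mark pairs, and the main fit does not use the numbers. With the replicate block 2021 genes and 12 pathway genes passed in RE against KD, and with the block and length correction 7 and 0. The comparisons with CON have no paired fit because the control columns carry no number tied to a sample.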

Other observations

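Within RE, library RE2 held the highest level of 6 of the 9 genes, a pattern noticed after the values were seen and not tested. The share of all tested genes that were highest in RE2 is not given, so nothing is read from this count. RE2 also had the most genes above 0 TPM within RE, 14465 against 14060 to 14209 in the other RE libraries. In RE2 Sfrp1 was at 85.0 TPM against 41.7 to 66.0 in the other RE libraries, Sfrp2 at 42.9 against 26.5 to 36.9, Nkd2 at 15.4 against 7.17 to 8.79, Axin2 at 0.419 against 0.204 to 0.374, Wnt7b at 0.288 against 0.0344 to 0.170 and Nkd1 at 0.0551 against 0 to 0.0033. Wnt4 was lowest there, at 0.129 TPM against 0.446 to 0.514. Wdr62 was at 0.772 TPM in RE2, near the 0.826 of RE3, with 1.47 in RE1 and 1.99 in RE4. A link of these levels to Wdr62 was not tested.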
